A study of Drosophila melanogaster with 3 samples.

Results

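CG16863 is a Drosophila melanogaster protein known by its annotation number, and its binding to chromatin was mapped by ChIP-seq in embryos. The flies belonged to 1 transgenic line that carried CG16863 with GFP at its C terminus, and the fusion was recovered from sonicated chromatin with an antibody against GFP. The material was whole embryos of mixed sex, collected from 0 to 16 h of development, in 3 biological replicates of 1 group with no second genotype, treatment or stage. A control library was not analysed here, so background signal and binding of the fusion cannot be told apart, and cells of all embryonic tissues were pooled in each library. The regions described are the 3′ UTR peaks: the peaks of the list called on the pooled replicates whose summit lay more than 500 bp from every annotated transcription start site (TSS), inside an annotated 3′ UTR and in no 5′ UTR. There were 593 of them among 23571 pooled peaks, which is 2.52% of the list. Their summits fell in the 3′ UTRs of 528 genes when each peak was given to 1 gene. In all, 746 pooled summits lay in a 3′ UTR, and 148 of these were left out because a TSS was too near and 5 because of a 5′ UTR. The pooled list was relaxed, meaning that it was deposited with peaks and background for a later test of reproducibility, so a place in it is not by itself evidence of binding. The reproducible set of 3953 peaks was the deposited list that passed that test (irreproducible discovery rate, IDR), and it held the pooled peaks with a signal of 108.6 or above, the highest signal outside it being 108.5.

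The 3′ UTR is the stretch of a messenger RNA from the stop codon to the poly(A) tail, and it carries binding sites for microRNAs and RNA-binding proteins that set the stability, translation and place of the message. In flies many genes end their transcripts at more than 1 place, and neurons in particular use distal ends that lengthen the UTR. ChIP-seq reads DNA and not RNA, so a peak at a 3′ UTR is a position on the chromosome that is annotated as 3′ UTR in some transcript. It can lie far from the end of the gene or be coding in another transcript. An element of the chromosome there can serve the same gene, a neighbour or none.

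Sequences under the summits are shown for 2 kinds of peak. They are 30 bases around each summit, printed 5′ to 3′ on the strand of the UTR, from the release 6 genome (dm6 coordinates), and capitals mark a match to a motif from the searches described further on. The first 8 are reproducible 3′ UTR peaks that ranked highest on average in the 3 replicates after leaving out 1 chromosome arm from which no sequence is printed, so qvr, described further on, is not shown although its signal was above that of CG9837 in every replicate, and the last 3 are the strongest 3′ UTR peaks whose summit is also coding sequence in some annotated transcript.
Cals: attgcagcagtttttgaaagggtattcaga
CG7872: gtcacaaaaaaagcacgccacattcgcgtg
CG33307: tacctatatacgcattgtagtttccaataa
stas: tcaatgcaaacaaaaaAATAAAcccacaat
by: tcatatttgtttatatgcccaagttgtaaa
CG9837: aaactgcacctgcaatcattttcgtgaagt
REG: tgcccgccaaaatgtcacatagtaaattct
Tctp: gggcgaacggcgatattgtctgatgttcga
Caper: cccatgcgcctctacgtgggatcactgcac
CG46467: ctcgccgccgccgccgcccacttttgtggt
CG34179: ctccatcgacgaggtgacgGAGAGcgcgcg
The capitals are AATAAA in stas, the letters of the polyadenylation signal, and GAGAG in CG34179, the letters of the GAGA element. G and C made up 26.7% of the bases shown for stas and by and 53.3% of those for Tctp, the highest of the 8. They made up 63.3% of the bases shown for Caper, 73.3% for CG46467 and 70.0% for CG34179.

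Few 3′ UTR peaks were reproducible, and those that were lay in the 3′ UTRs of genes of many kinds. Of the 593 peaks, 34 belonged to the reproducible set, which is 5.73% (95% Wilson interval 4.13 to 7.91), against 16.8% of all pooled peaks. Intervals of this kind cover counting error only. The 34 lay in the 3′ UTRs of 32 genes. The median pooled signal, the score that the authors' peak caller gave each peak, was 45.4 for 3′ UTR peaks and 53.1 for all other pooled peaks. At a q value of 0.01 or below there were 46 of the 593 peaks, or 7.76%, against 20.7% of all pooled peaks.

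The share lay below those of introns, intergenic sequence and promoters and above that of coding exons. It was 5.73% for 3′ UTR peaks, against 16.5% (15.7 to 17.3) for 8187 peaks in introns. It was 14.03% (12.9 to 15.2) for 3649 intergenic peaks and 25.8% (24.9 to 26.8) for 7690 promoter peaks, which are those within 500 bp of a TSS. Peaks in coding exons were on the other side of the 3′ UTR peaks: 8 of 2970, or 0.269% (0.137 to 0.531), were reproducible. None of these 4 intervals overlapped that of the 3′ UTR peaks, while that of the 247 peaks in 5′ UTRs did, at 9.72% (6.62 to 14.1). Counted per length of sequence, 3′ UTRs held 87.6 pooled peaks and 5.02 reproducible peaks per Mb over 6.77 Mb. Coding exons held 169 pooled peaks per Mb but 0.456 reproducible ones, and introns held 155 and 25.6. Thus 3′ UTRs had fewer pooled peaks per Mb than coding exons and more reproducible ones.

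**Figure D1:**
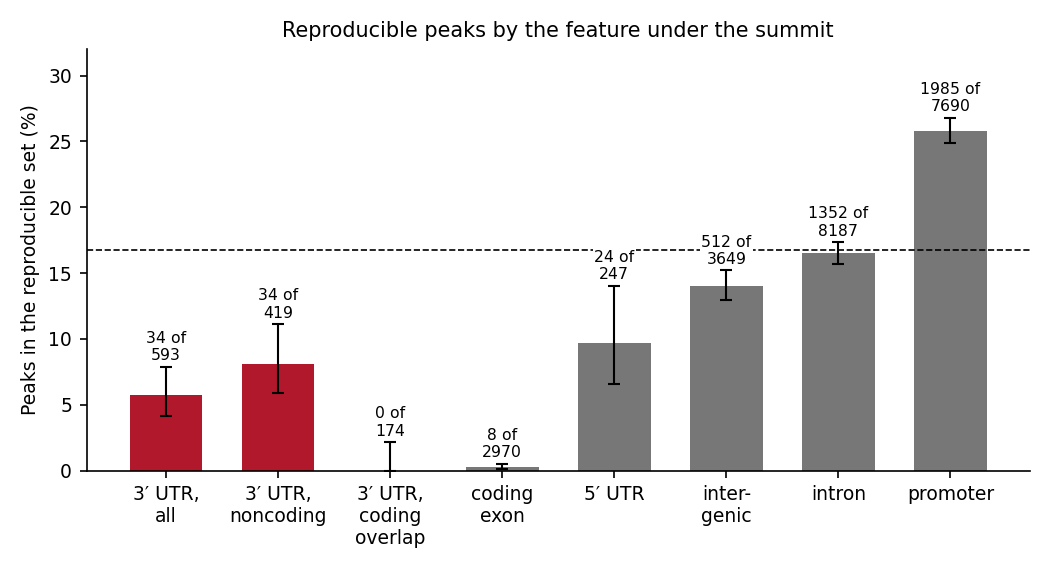
Share of pooled peaks in the reproducible set (vertical axis, percent) by the feature under the summit, with 95% Wilson intervals as bars and the counts above them. The dashed line is the share over all pooled peaks, 16.8%; red bars are 3′ UTR peaks, all of them and split by whether the summit is also coding in some transcript, and 3′ UTR peaks stand at 5.73%, between coding exons at 0.269% and introns at 16.5%.

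The 3′ UTR peaks with the highest pooled signals were in Cals, CG7872, CG33307, stas, by, qvr and Tctp. To compare replicates, the signal of each replicate's own peak within 100 bp of the pooled summit was divided by that replicate's median over the reproducible set, so that a relative signal of 1 is a typical reproducible peak. The strongest peak lay in Cals, which encodes the cadherin-related membrane protein calsyntenin, at chr4:1113215-1113457, with a pooled signal of 487. Its relative signals were 2.62, 2.68 and 2.83 in replicates 1, 2 and 3 (mean 2.71 ± 0.104, SD, n = 3). The second lay in CG7872 at chrX:15579692-15579900, with a pooled signal of 446.5 and relative signals of 2.55, 2.12 and 2.66 in replicates 1, 2 and 3. These 2 peaks were well above a typical reproducible peak in every replicate, and they were also the only 3′ UTR peaks narrower than 430 bp, at 243 and 209 bp. The CG7872 summit stood 66 bp before the end of its UTR. The Cals summit lay 9648 bp from the nearest TSS and also inside sv, a Pax-family transcription factor gene on the other strand, so its position is shared by both genes.

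The next 5 peaks were less even between replicates. A peak in CG33307 at chr2L:13839670-13840099 had relative signals of 1.43, 2.05 and 1.49 in replicates 1, 2 and 3, with a pooled signal of 308. It too lay inside a gene on the other strand, CenG1A. The peak in stas, the gene of the endoplasmic reticulum protein stasimon, at chrX:17624905-17625334 had relative signals of 1.15, 1.66 and 1.41. The peak in by, which encodes the focal adhesion protein tensin, at chr3R:9528423-9528852 had 1.11, 1.56 and 1.59. In qvr, the gene of the sleep-promoting membrane protein quiver, they were 1.13, 1.63 and 1.11 at chr2R:11450544-11450973. All 4 stood above 1 in every replicate, and replicate 1 was at or near the lowest in each of them. The peak in Tctp, the translationally controlled tumour protein, a growth regulator, at chr3R:11211591-11212020 had 0.916, 1.56 and 1.05, so it was above a typical reproducible peak in 2 of 3 replicates. Over the 31 reproducible 3′ UTR peaks with a peak in every replicate, 8 were above 1 in all 3 replicates and 11 were below 1 in all 3.

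The other reproducible peaks had pooled signals between 109.7 and 207. They included genes of signalling and guidance: NetB, a netrin that guides axons, at 207, Myd88, the adaptor of the Toll receptor, at 163, raskol, a Ras GTPase-activating protein, at 157, Inx2, a gap junction innexin, at 120 and Ance-3, related to angiotensin-converting enzyme, at 114.7. NetB had relative signals of 0.838, 1.24 and 1.34 in replicates 1, 2 and 3. Myd88 had 0.546, 1.14 and 0.750, and raskol had 0.555, 0.873 and 1.06. Replicate 1 was the lowest of the 3 in NetB, Myd88 and raskol, but not in Inx2 or Ance-3. Inx2 had 0.612, 0.764 and 0.610 in replicates 1, 2 and 3. Ance-3 had 0.73, 0.50 and 0.52, with replicate 1 the highest. Genes of calcium and the cytoskeleton were scf, a calcium-binding protein, at 152, Cam, calmodulin, at 151 and chic, the actin-binding protein profilin, at 124. The scf peak had 1.19, 0.844 and 0.385 in replicates 1, 2 and 3, with the largest SD, 0.403, of the 31 reproducible peaks matched in every replicate, while chic had 0.697, 0.572 and 0.643. Genes with nuclear products were pros, a homeodomain transcription factor of neural lineages, at 125, Ssu72, a phosphatase of the RNA polymerase II tail, at 128 and TAF1B, a factor of RNA polymerase I, at 120. Genes of protein turnover were REG, a proteasome activator, at 194 and Ppa, an F-box protein, at 168 and 109.7. REG was among the even ones, with relative signals of 1.02, 1.08 and 1.21 in replicates 1, 2 and 3.

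The remaining reproducible peaks lay in CG14440, CG9837, CG5895, CG8206, CG14505, BTBD9, Crag, CG9166, CG33307 (its second peak), CG7778, CG1888, CG10222 and mtd. CG9837 had 1.07, 1.22 and 1.08 in replicates 1, 2 and 3, above a typical reproducible peak in each. CG5895 had 1.23, 1.00 and 0.867 and a pooled signal of 189, in a UTR of 65 bases, the shortest that held a reproducible peak. Crag, the gene of an exchange factor for Rab GTPases, had 1.02, 0.542 and 0.522. Replicate 3 had no peak within 100 bp of 3 of the 34 pooled summits, those of BTBD9, CG7778 and the second one in CG33307. CG33307 and Ppa each held 2 reproducible peaks, with summits 205 and 225 bp apart. These distances are shorter than the peaks are wide, and the 2 peaks of a pair overlapped.

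**Figure D2:**
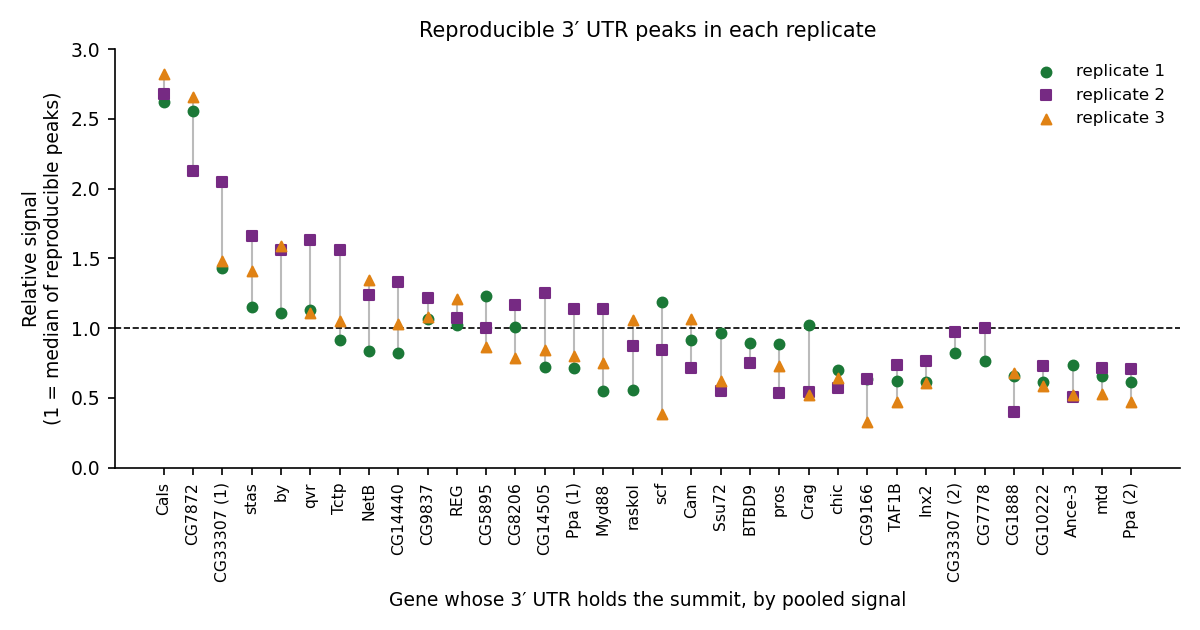
Relative signal of the 34 reproducible 3′ UTR peaks in each replicate (vertical axis, replicate signal divided by that replicate's median over the reproducible set), ordered by pooled signal from left to right. Symbols are single replicates, a grey line joins the values of 1 peak, and the dashed line at 1 is a typical reproducible peak; Cals and CG7872 stand above 2 in every replicate, and 11 of the 31 peaks with 3 values lie below 1 in all of them.

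Just under the limit of the reproducible set, the highest 3′ UTR peaks outside it were those in Bre1, an E3 ligase for histone H2B, at 105, Hr4, a nuclear receptor of the ecdysone response, at 105 and Ac13E, an adenylyl cyclase, at 104.5. Bre1 had relative signals of 0.365, 0.843 and 0.520 in replicates 1, 2 and 3. Ac13E had 0.524, 0.637 and 0.578. In all, 12 of the 559 peaks outside the set had a q value of 0.01 or below, or 2.15% (1.23 to 3.71). Of all 23571 pooled peaks 4878 had such a q value, and these included all 3953 of the reproducible set.

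The reproducible 3′ UTR peaks lay in sequence that was noncoding in every transcript. Of the 593 summits, 174 (29.3%) were also inside the coding sequence of some annotated transcript, in 106 cases of the same gene and in 68 of another gene alone. The other 419 summits were coding in no transcript. Among the 419 noncoding peaks, 34 were reproducible, or 8.11% (5.87 to 11.1). Among the 174 coding-overlap peaks 0 were reproducible, for which the interval reached 2.16%. A q value of 0.01 or below was found for 46 noncoding and 0 coding-overlap peaks. The division was chosen after values of these peaks had been seen, so no p value is given for it. The median pooled signals were close, at 45.9 for noncoding and 44.5 for coding-overlap peaks, and the difference lay at the top: the maxima were 487 and 90.2. Coding exon peaks outside UTRs had a share of 0.269% and intron peaks one of 16.5%, as given above.

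Among the coding-overlap peaks, the highest were those in Caper, an RNA-binding splicing factor, at 90.2, in CG46467 at 83.9 and in CG34179 at 82.4. The Caper peak at chr2L:7036376-7036805 had relative signals of 0.452 and 0.479 in replicates 1 and 3 and no peak in replicate 2. The CG46467 peak at chr3R:9875606-9876035, which also lies inside Glut4EF, had 0.515 in replicate 1 and no summit within 100 bp in the others. Another CG46467 peak, with its summit 203 bp away, overlapped it and had 0.303 and 0.574 in replicates 2 and 3. The CG34179 peak at chr2L:6046916-6047345 had 0.258 in replicate 2 alone. An overlapping CG34179 peak, 202 bp away, had 0.606 and 0.551 in replicates 1 and 3. None of these 3 summits was matched within 100 bp in every replicate, but for CG46467 and CG34179 the other replicates had matches at the overlapping peak. Over all noncoding peaks, 54.2%, 63.7% and 54.4% had a peak in replicates 1, 2 and 3, against 55.2%, 43.1% and 60.9% of the coding-overlap ones. Replicate 2 was thus the highest of the replicates for noncoding peaks and the lowest for coding-overlap ones. This was not particular to 3′ UTRs. Replicate 2 was also the lowest for coding exon peaks, at 48.35%, 46.3% and 62.1% in replicates 1, 2 and 3. It was the highest for intron peaks, at 61.6%, 71.1% and 62.4%.

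Base composition moved with this division. The sequence from 50 bp before to 50 bp after the summit had a median GC content of 39.6% in noncoding and 59.4% in coding-overlap peaks. It was 37.6% in the 34 reproducible 3′ UTR peaks and 46.5% in the other 559. Over all pooled peaks it was 42.6%, and over the reproducible set 34.7%. Within the noncoding peaks, 4 of 78 with a GC content of 50% or above were reproducible, or 5.13% (2.01 to 12.5), and 30 of 341 below 50%, or 8.80% (6.23 to 12.3), and these intervals overlapped. The 4 GC-rich ones were those of Cam at 64.4%, the second of CG33307 at 55.4%, BTBD9 at 54.5% and pros at 54.5%. Only 17 coding-overlap peaks had a GC content below 50%, and 0 of them were reproducible, with an interval up to 18.4%, so the 2 kinds could not be compared at low GC content. At 50% or above, the 4 of 78 noncoding peaks stood against 0 of 157 coding-overlap ones (up to 2.39%). Intron peaks had shares of 4.83% (3.77 to 6.16) at 50% or above and 18.6% (17.7 to 19.5) below. Coding exon peaks outside UTRs had 0.158% (0.0613 to 0.405) at 50% or above and 0.924% (0.360 to 2.35) below. The part of base composition in the reproducible share was not tested.

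**Figure D3:**
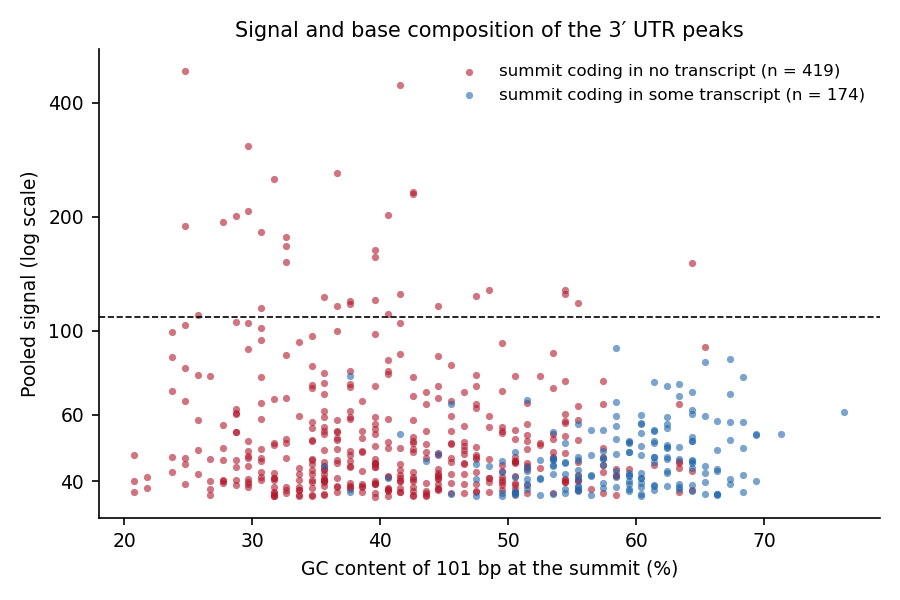
Pooled signal (vertical axis, log scale) against the GC content within 50 bp of the summit (horizontal axis, percent) for 593 3′ UTR peaks, 1 point each, red where the summit is coding in no transcript and blue where it is coding in some transcript. The dashed line is the lowest signal of the reproducible set, 108.6; all points above it are red, and the median GC content is 39.6% for the red points and 59.4% for the blue ones.

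Within the UTR, reproducible peaks were fewest next to the stop codon. The 593 peaks had their summit at a median of 43.7% of the UTR length, counted from the stop codon in the transcript with the longest UTR that held the summit, and at a median of 501 bases into it. The 34 reproducible ones, all of them noncoding, were at a median of 51.6%, and the 419 noncoding peaks together at 48.9%. Among noncoding peaks, 3 of 96 in the first of 5 equal stretches of the UTR were reproducible, or 3.13% (1.07 to 8.79). In the 3 stretches between the first and the last one, in order from the stop codon, the shares were 10.3% (8 of 78), 7.87% (7 of 89) and 7.25% (5 of 69). In the last stretch 11 of 87 were reproducible, or 12.6% (7.21 to 21.2), and this interval overlapped that of the first stretch. The last stretch held, among others, the summits of Cals, CG7872, by, Tctp and Myd88. Peak intervals were broad against these distances: 591 of the 593 were 430 bp wide, and 11 of the 34 reproducible peaks and 113 of the other 559 reached past the end of the UTR. Those 559 include the coding-overlap peaks, of which 7 of 174 did so. Among the 419 noncoding peaks 117 did, or 27.9%, near the 32.4% of the reproducible ones.

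**Figure D4:**
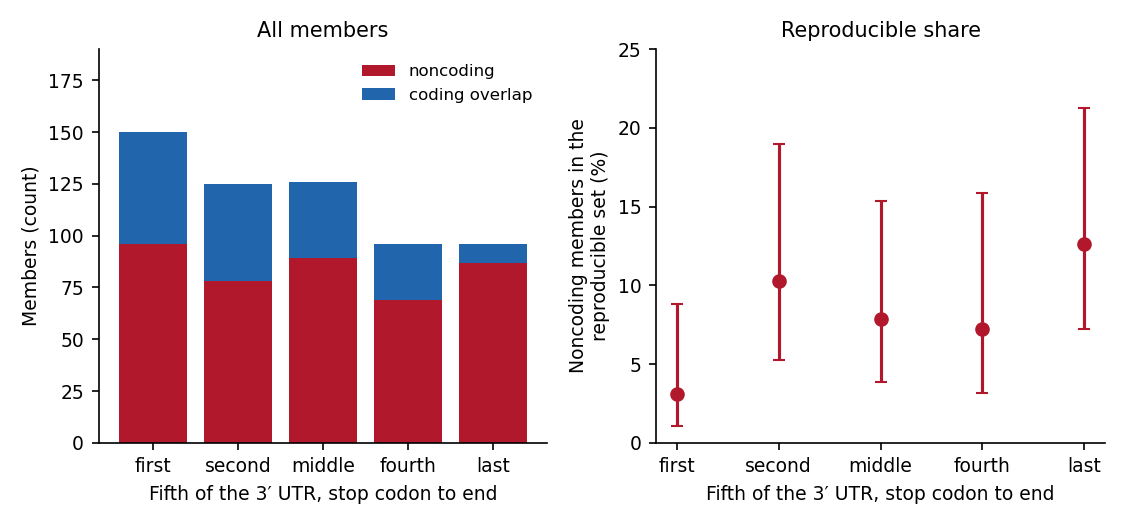
Left, number of 3′ UTR peaks (vertical axis, count) by place in the 3′ UTR, cut into 5 equal lengths from the stop codon to its end (horizontal axis), red for noncoding and blue for coding-overlap summits. Right, share of the noncoding peaks in the reproducible set (vertical axis, percent) with 95% Wilson intervals, which was 3.13% in the first stretch and 12.6% in the last, with overlapping intervals.

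Many summits lay beyond the end of another annotated transcript of the gene, in whatever way the transcripts differed. This was so for 23 of the 34 reproducible peaks, or 67.6% (50.8 to 80.9), against 217 of the other 559, or 38.8% (34.9 to 42.9). Examples were Cals, Tctp, Myd88, Cam, Inx2 and chic. Of the 174 coding-overlap peaks 47 lay beyond such an end as well, so the sequence there is not always UTR alone. Among noncoding peaks alone, 23 of 193 beyond such an end were reproducible, or 11.9% (8.07 to 17.3), against 11 of 226 that were not, or 4.87% (2.74 to 8.50), and these intervals overlapped. The genes that held a 3′ UTR peak had long UTRs, with a median of 1407 bases for the longest UTR of the 528 genes, against 227 bases for the 13534 genes with an annotated 3′ UTR. The peaks were picked by a summit inside a 3′ UTR, so the rule itself favours genes with long UTRs. Neither UTR length nor gene length was adjusted for, and the part of length in which genes held a peak was not tested.

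The 3 peaks closest to the limit on the inside lay in senju, CG31676 and CG5509, at 501, 503 and 509 bp from a TSS, with pooled signals of 42.9, 43.0 and 39.6. On the outside, CG46316, Mlc2, a myosin light chain gene, and CG31313 were at 499, 498 and 488 bp, with 42.3, 89.7 and 47.3. Up to 1000 bp from a TSS 2 of 129 peaks were reproducible, or 1.55% (0.426 to 5.48), and over 1000 and up to 2000 bp away 19 of 195 were, or 9.74% (6.33 to 14.7). Farther away it was 7 of 188 up to 5000 bp and 6 of 81 beyond. The 126 summits in a 3′ UTR and in no 5′ UTR that lay within 500 bp of a TSS had 23 reproducible peaks, or 18.3%, and a median pooled signal of 59.97, both above the values of the 593. The nearest TSS belonged to the same gene in 21 of the 34 reproducible peaks and in 181 of the other 559. It did so in 165 of the 419 noncoding peaks, which include all reproducible ones, and in 37 of the 174 coding-overlap peaks.

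In the replicates' own lists the same order of features appeared. The relaxed lists of replicates 1, 2 and 3 held 24378, 30000 and 29769 peaks, and 3′ UTR peaks made up 2.99%, 3.14% and 2.83% of them (mean 2.99 ± 0.154, SD, n = 3). Of the peaks in 3′ UTRs, 4.79%, 3.29% and 3.20% in replicates 1, 2 and 3 were among the strongest 3953 of that list. Over all peaks of each list the share was 16.2%, 13.2% and 13.3%. For coding exons it was 0.575%, 0.356% and 0.680%, so 3′ UTRs were higher in 3 of 3 replicates, by 3.23 ± 0.885 percentage points (mean ± SD, n = 3; exact sign-flip permutation test, two-sided p = 0.25). Introns had 15.9%, 12.4% and 13.3%, and 3′ UTRs were lower in 3 of 3, with a difference of -10.1 ± 0.965 points (exact test, two-sided p = 0.25). Against intergenic peaks the difference was -6.99 ± 0.133 points and against promoter peaks -20.7 ± 3.19 points, again lower in 3 of 3 (exact tests, two-sided p = 0.25 each). With 3 replicates this test cannot give a two-sided p below 0.25, so none of these 4 differences can pass 0.05, and each exceeded the SD between replicates.

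**Figure D5:**
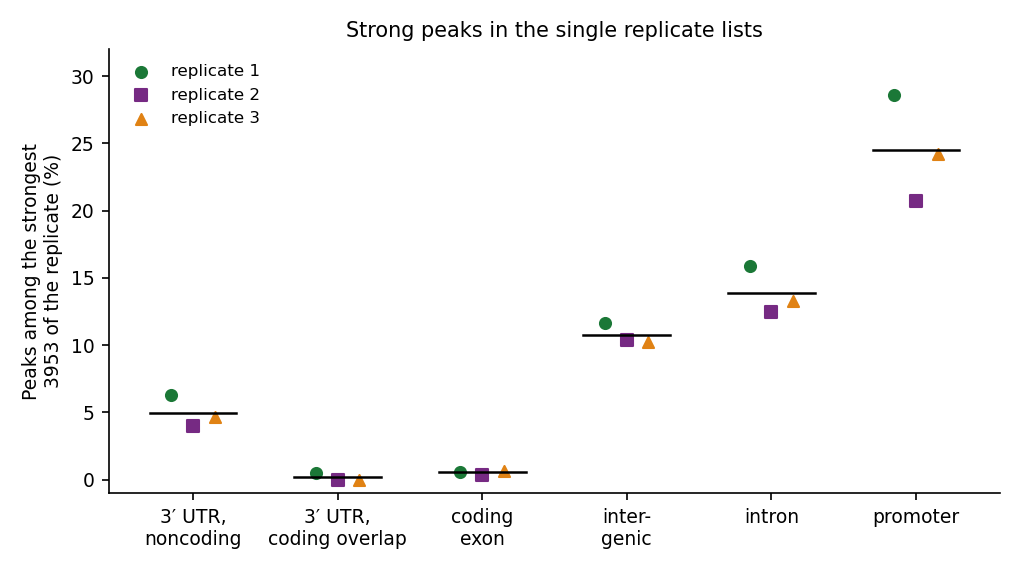
Share of the peaks of a class that were among the strongest 3953 of a replicate's own list (vertical axis, percent) by class, with noncoding and coding-overlap 3′ UTR peaks on the left. Symbols are replicates 1, 2 and 3 and black lines are their means; noncoding 3′ UTR peaks lay at 6.31%, 3.99% and 4.66%, and coding-overlap ones at 0.524%, 0% and 0%.

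The split by coding sequence, chosen after values of these peaks had been seen, was also present in each replicate's own list. The replicates' reads made the pooled list too, so this is not an independent check. Of noncoding 3′ UTR peaks 6.31%, 3.99% and 4.66% were among the strongest of replicates 1, 2 and 3. Of coding-overlap ones 1 of 191, 0 of 164 and 0 of 264 were, or 0.524%, 0% and 0%. The median signal told less. Between noncoding and coding-overlap 3′ UTR peaks the median log2 signal differed by 0.006 ± 0.066 (mean ± SD, n = 3), higher in 2 of 3 replicates and within the SD. On the log2 scale, the median signal of 3′ UTR peaks differed from that of coding exon peaks by 0.01, 0.06 and -0.02 in replicates 1, 2 and 3 (mean 0.02 ± 0.04, higher in 2 of 3; exact sign-flip permutation test, two-sided p = 0.75), which is within the SD between replicates. Without replicate 2 this mean was -0.01. From the median of intron peaks it differed by -0.14, -0.21 and -0.11, a mean difference of -0.16 ± 0.05, and it differed from that of promoter peaks by -0.43 ± 0.06, lower in 3 of 3 for both (exact tests, two-sided p = 0.25 each).

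A peak of a replicate within 100 bp was found for 54.5%, 57.7% and 56.3% of the 593 summits in replicates 1, 2 and 3 (mean 56.2 ± 1.61), against 60.6%, 68.9% and 64.6% of all other pooled summits (64.7 ± 4.14). All 3 replicates had one for 104 of the 593, or 17.5%, against 31.0% of all pooled peaks, and for 31 of the 34 reproducible ones, or 91.2%, against 91.0% of the whole reproducible set. Another 228 were matched in 2 replicates, 231 in 1 and 30 in none. The replicates' reads also made the pooled list, so these shares describe how evenly a peak rested on them.

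Several genes had more than 1 peak, and most of those were weak. Of the 528 genes, 475 had 1 peak, 46 had 2, 4 had 3, 2 had 4 and 1 had 6. The gene with 6 was corto, whose product is a chromatin protein that works with Polycomb and Trithorax group proteins, and its UTR of 6594 bases held signals between 38.4 and 90.3, none of them reproducible. The highest of them had relative signals of 0.503, 0.604 and 0.292 in replicates 1, 2 and 3, and the other 5 were matched in 1 or 2 replicates. CG1888 had 4 peaks, between 37.4 and 116, with 1 reproducible, and nocte, needed to set the clock by temperature, had 4 between 40.04 and 76.4. Cam had 3 peaks in a UTR of 5015 bases, at 151, 70.8 and 50.8. The reproducible one had relative signals of 0.918, 0.714 and 1.06 in replicates 1, 2 and 3, and the weakest was matched in replicate 3 alone at 0.286. CG46467, scny, a ubiquitin protease, and ctp, a dynein light chain, had 3 each, with maxima of 83.9, 59.0 and 49.9. Another pooled summit lay within 500 bp of 81 of the 593 peaks, or 13.7% (11.1 to 16.7), against 22.5% of all pooled peaks.

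Gene lists tied to 3′ UTRs or to other roles held between 0 and 5 of these peaks each, too few to set their reproducible share, 0 in every list, apart from the 5.73% of all 593. Over all genes with an annotated 3′ UTR, 550 of 13534, or 4.06%, had a peak when every UTR over a summit was counted. Of 16 genes known to lengthen their 3′ UTR in neurons, 4 had a peak (elav, fne, mei-P26 and pum), or 25%, with a list median of 48.6, against 45.4 for all 593. The RNA-binding protein gene elav, which drives that lengthening, had 2, with pooled signals of 86.9 and 62.1. The stronger had relative signals of 0.360, 0.433 and 0.531 in replicates 1, 2 and 3 and the other 0.409, 0.343 and 0.241, all below a typical reproducible peak. Its relative fne, at 48.6, had 0.308, 0.177 and 0.359. Of 13 maternal messages with known control through the 3′ UTR, 1 had a peak, or 7.69%, that of the translational repressor pum at 43.5, matched in replicate 1 alone. None of 19 genes of the Enhancer of split and Bearded type and cell death genes under microRNA control had one. Of 20 genes of other RNA-binding proteins 2 had a peak, or 10%, Rbp9 at 49.0 and Sxl, the switch gene of sex determination, at 41.9, with a list median of 45.5. Of 85 cytosolic ribosomal protein genes 4 had one (RpS29, RpS19a, RpL36 and RpS26), or 4.71%, with a median of 44.1, and of 10 muscle genes 1 had one, or 10%, Mhc, at 44.4. These shares are per gene and not per UTR length, and each of the lists other than that of ribosomal proteins rests on 20 or fewer genes.

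Sequence motifs were looked for within 50 bp of the summit, and none was in more than 6 of the 34 reproducible 3′ UTR peaks, or 17.6%. GAGAG, on both strands, was in 14.8% of the 593 windows, against 13.1% of all pooled windows and 11.2% of those in the reproducible set. GATAA, the GATA element, was in 18.9% of the 593 and of all pooled windows on both strands, and in 23.7% of the reproducible set. TATCGATA, the DNA replication-related element, was in 0.169% against 1.11%, and CAGGTAG, the Zelda element, in 0.843% against 0.692%. CACACA, a repeat, was in 11.8% against 8.66%. On the strand of the UTR, AATAAA was in 12.3% of the 593 and in 6 of the 34 reproducible ones, and ATTTA, an AU-rich element, in 17.9% and in 6 of 34. All pooled windows, read on the plus strand, had 10.4% and 21.4%, and those of the whole reproducible set 14.3% and 30.9%. TGTANATA, the letters bound by Pumilio in RNA, was in 3.04% against 2.11%. The noncoding and coding-overlap windows differed in the AT-rich motifs: AATAAA was in 16.9% and 1.15%, and ATTTA in 22.9% and 5.75%, beside their median GC contents of 39.6% and 59.4%. ATTTA and AATAAA can overlap in a window, and a match says only that the letters are there.

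The 3′ UTR peaks were spread over the chromosome arms, with 108 on 2L, 109 on 2R, 93 on 3L, 155 on 3R, 8 on chromosome 4 and 120 on X. On X 11 of 120 were reproducible, or 9.17% (5.20 to 15.7), and 1 of 8 was on chromosome 4, or 12.5% (2.24 to 47.1). On 2L it was 5 of 108 (4.63%), on 2R 7 of 109 (6.42%), on 3L 4 of 93 (4.30%) and on 3R 6 of 155 (3.87%). The intervals of all arms overlapped that of X. Over all pooled peaks the share was 19.5% on X, 7.93% on chromosome 4 and between 15.8% and 16.7% on the other arms. Of the 593 peaks, 123 (20.7%) lay inside another gene as well, 58 of them on the other strand, and 5 of the 34 reproducible ones did. Among those in no other gene, 29 of 470 were reproducible, or 6.17% (4.33 to 8.72).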

How the data were processed

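ChIP-seq peak lists of 3 biological replicates of 1 group were used, in the dm6 build per the labels: a relaxed list per replicate (24378 to 30000 rows), a relaxed list made from all replicates together, and the list that passed the IDR test. Peaks were called by the authors, the caller not being given in the sources used here. The deposited signal of each peak is the authors' own value, and the deposited q value is given as −log10. No read counts were used, so depth per sample is unknown here.

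Summits were placed on the Ensembl annotation (release 115, BDGP6.54, the same release 6 assembly), transposable elements left out, and a summit took the first class it met: promoter (within 500 bp of a TSS), then 5′ UTR, then 3′ UTR, then coding or other exon, then intron, else intergenic. Sequence came from the RefSeq release 6 genome. A replicate peak counted as a match when its summit lay within 100 bp, the highest being taken. Shares have 95% Wilson intervals. Differences between classes were tested over the replicates with an exact sign-flip test, in Python 3.11.15 with numpy 2.4.6, pandas 2.3.3 and scipy 1.17.1, and the steps were tested on simulated data. Genes were named by a rule: every reproducible 3′ UTR peak, genes with 3 or more, the 3 peaks on each side of the distance limit and the 2 highest of each gene list. The peaks just under the reproducible limit, the coding split and its examples were chosen after their values were seen. The peaks and gene lists were chosen with earlier results of these data known. Alternatives changed the distance to a TSS, the position used, the match, the thresholds and the replicates used.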

Additional observations from a re-analysis of the deposited data

How the results depend on the processing

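Of 87 values under other settings, 73 counted as unchanged. For the differences in median log2 signal this meant the same sign alone, whatever the size. Counts and peaks per Mb had to stay within 1.5 times, and the other values within their error. Among the 10000 highest rows of each list, the difference from coding exon peaks was 0.171, against 0.0171. With a TSS distance of 200 bp the difference from promoter peaks was -0.577, against -0.431. Only 1 changed sign: without replicate 2 the difference in median log2 signal between 3′ UTR and coding exon peaks was -0.0057, against 0.0171 with all 3, and over the replicates left out it ranged from -0.0057 to 0.0370. The other 13 moved. With only summits coding in no transcript, the reproducible share was 8.11%, the share of replicate peaks 2.25%, the median position 48.9% and the median GC content 39.6%. The share of replicate peaks in 3′ UTRs was 3.35% with a TSS distance of 200 bp, 2.40% with 1000 bp and 1.56% among the 10000 highest rows of each list. A replicate match was found for 47.1% of 3′ UTR peaks within 50 bp and 64.1% within 200 bp. With the 2000 highest pooled peaks in place of the IDR set, 2.36% of all and 3.34% of noncoding 3′ UTR peaks were called. That setting called 2000 of all 23571 pooled peaks, where the IDR set held 3953. The difference between noncoding and coding-overlap peaks among the strongest 2000 rows was 2.23 points. Among pooled peaks at a q value of 0.01 or below, the median signal of 3′ UTR peaks was 0.808 times that of the others, against 0.855 times over the whole list. Calling fewer peaks, matching within another distance and changing the TSS distance move the shares called, matched or in 3′ UTRs by construction. The cause of the other moves was not tested. Leaving out each replicate gave a match for 55.4% to 57.0% of the peaks, differences in median log2 signal of -0.18 to -0.13 against introns and -0.45 to -0.40 against promoters, and a difference of 4.32 to 5.22 points between noncoding and coding-overlap peaks among the strongest, with the share in 3′ UTRs at 2.91% to 3.07%. Differences between classes of peaks were taken within each replicate, and with 1 group of samples there were no groups to pair. Without counts, depth and its limits could not be stated.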
